A study of Caenorhabditis elegans with 8 samples.

Results

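The 9 genes described here encode the enzymes that break down propionate in Caenorhabditis elegans by 2 routes. They were chosen by name and looked up by sequence name in a table of reads over introns. All 9 were present, out of 5762 genes in the table, with 38 of 20324 introns. The shunt genes acdh-1, ech-6, hach-1, hphd-1 and alh-8 held 25 of these introns, and the vitamin B12-dependent genes pcca-1, pccb-1, mce-1 and mmcm-1 held 13. The genes were picked with their response in these libraries known, so their levels and changes between the groups are given as a description, and counts of them called in tests over all genes or introns are printed beside the share of all features called, with nothing read from them. By contrast, the use of single introns within a gene, which the choice did not rest on, was tested.

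The study compared wild-type N2 worms after knockdown of spk-1, the gene of the kinase that phosphorylates serine- and arginine-rich splicing factors, with worms fed the empty vector. Worms of both groups were grown at 20 °C, moved as L4 larvae onto E. coli and fed for 24 h at 25 °C. Control bacteria carried the empty RNAi vector L4440, and spk-1(RNAi) bacteria made spk-1 double-stranded RNA. Each of the 4 libraries per group was made, with strand marked by dUTP, from polyadenylated RNA of a pool of at least 100 whole adults, so each value averages over all tissues and all animals of the pool, and fewer cells of a type cannot be told apart from less RNA per cell. The labels do not say whether replicates were separate cultures, so any p-value measures the spread between these libraries, which may be technical.

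Propionyl-CoA arises from the breakdown of valine, isoleucine, methionine, threonine and odd-chain fatty acids, and it is toxic when it builds up. The route shared with mammals carboxylates it to methylmalonyl-CoA and rearranges that to succinyl-CoA with a mutase that needs vitamin B12, which the worm takes from its bacterial diet. When that route cannot keep up, C. elegans turns on the propionate shunt, a path like beta-oxidation through acrylyl-CoA, 3-hydroxypropionate and malonic semialdehyde to acetyl-CoA. The shunt's first enzyme gene, acdh-1, is widely used as a reporter of low dietary B12.

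Junction reads, the reads that span a splice junction, totalled 1821717 to 47299659 per library. They were scaled to CPM (counts scaled to a common library size) with TMM factors, so a gene's CPM is a level of its spliced reads over all its listed introns. Replicate numbers pair the libraries, and a pair ratio is the CPM of an spk-1(RNAi) library over that of the control library with the same number. Over the 8 introns of spk-1 other than those after exons 6 and 7, the pair ratios were 0.154, 0.2497, 0.304 and 0.305, so spk-1 was lower in each spk-1(RNAi) library at these introns. Reads over the introns after exons 6 and 7 went the other way, and spk-1 reads made up 0.178% to 6.25% of the junction reads in spk-1(RNAi) libraries against 0.0464% to 0.0628% in controls. Leaving the spk-1 introns out before scaling left the difference between the routes given further on at -0.55. Markers of intestine (8 of 12), hypodermis (5 of 8), muscle (6 of 8), germline (10 of 10) and neurons (2 of 6) were in the table, and the other markers of those lists had no listed intron.

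The 9 genes lie on 4 chromosomes, and all coordinates are those of build ce10, from the first base of the first listed intron to the last base of the last one. Among the shunt genes, acdh-1 (C55B7.4) lies on chromosome I from 6497629 to 6499283, ech-6 (T05G5.6) on III from 9751662 to 9752487, and hach-1 (F09F7.4) on III from 5555468 to 5556831. The genes hphd-1 (Y38F1A.6) and alh-8 (F13D12.4) lie on II, from 12994511 to 12996178 and from 11729043 to 11730613. Among the B12 route genes, pcca-1 (F27D9.5) and pccb-1 (F52E4.1) lie on X, from 7657913 to 7660850 and from 3090484 to 3090714. The genes mce-1 (D2030.5) and mmcm-1 (ZK1058.1) lie on I from 7582180 to 7582722 and on III from 3903556 to 3907229. The plus strand carries acdh-1, hach-1, alh-8, pccb-1 and mce-1, and the minus strand the others.

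The first step of the shunt had the widest range of all 9 genes over the 8 libraries. The gene acdh-1, which encodes the acyl-CoA dehydrogenase that turns propionyl-CoA into acrylyl-CoA, had 656, 453, 178 and 268 CPM in control replicates 1 to 4. After spk-1(RNAi) it had 435, 266, 39.5 and 112 CPM. Each spk-1(RNAi) library was below its own control, but replicate 1 after spk-1(RNAi) was above control replicates 3 and 4, so the groups overlapped. The group means were 388.9 ± 211.8 and 213.2 ± 175.5 CPM (SD, n = 4). The highest control library had 3.68 times the level of the lowest, and after spk-1(RNAi) the highest had 11.02 times the lowest. The pair ratios were 0.663, 0.587, 0.222 and 0.419. The log2 fold change was -0.87 (SE 0.65) without the replicate number in the model and -1.196 (SE 0.22) with it as a block.

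The next shunt steps did not share one pattern. ECH-6, the enoyl-CoA hydratase that makes 3-hydroxypropionyl-CoA and also serves valine breakdown, had a gene level of 265, 137, 251 and 270.4 CPM in controls and 216, 217, 192 and 245 CPM after spk-1(RNAi). Control replicate 2 stood far below the other controls, and pair 2 was the pair in which ech-6 was higher after spk-1(RNAi), at a ratio of 1.58 against 0.764 to 0.906 in the other pairs. The gene of the 3-hydroxypropionyl-CoA hydrolase, hach-1, had 97.3, 118.8, 152 and 147 CPM in controls and 80.6, 99.8, 124.7 and 129.6 CPM after spk-1(RNAi). Its 4 pair ratios were close together, from 0.820 to 0.882, with a log2 fold change of -0.24 (SE 0.23), or -0.25 (SE 0.10) with the block.

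HPHD-1, the oxidoreductase that turns 3-hydroxypropionate into malonic semialdehyde, was encoded by the other gene with large differences. Its gene had 204, 85.4, 104 and 121 CPM in controls and 139, 78.0, 37.0 and 56.5 CPM after spk-1(RNAi). As for acdh-1, the lowest library was spk-1(RNAi) replicate 3 and the highest control replicate 1, and the groups overlapped. The pair ratios were 0.682, 0.913, 0.357 and 0.465, and the log2 fold change was -0.74 (SE 0.41), or -0.86 (SE 0.19) with the block. The last shunt gene, alh-8, encodes the semialdehyde dehydrogenase that yields acetyl-CoA. It had 463, 403, 884 and 961 CPM in controls and 426, 577, 681 and 747 CPM after spk-1(RNAi). Replicates 3 and 4 were above replicates 1 and 2 in both groups, the reverse of acdh-1, and the pair ratios of alh-8 were 0.921, 1.43, 0.770 and 0.778.

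**Figure D1:**
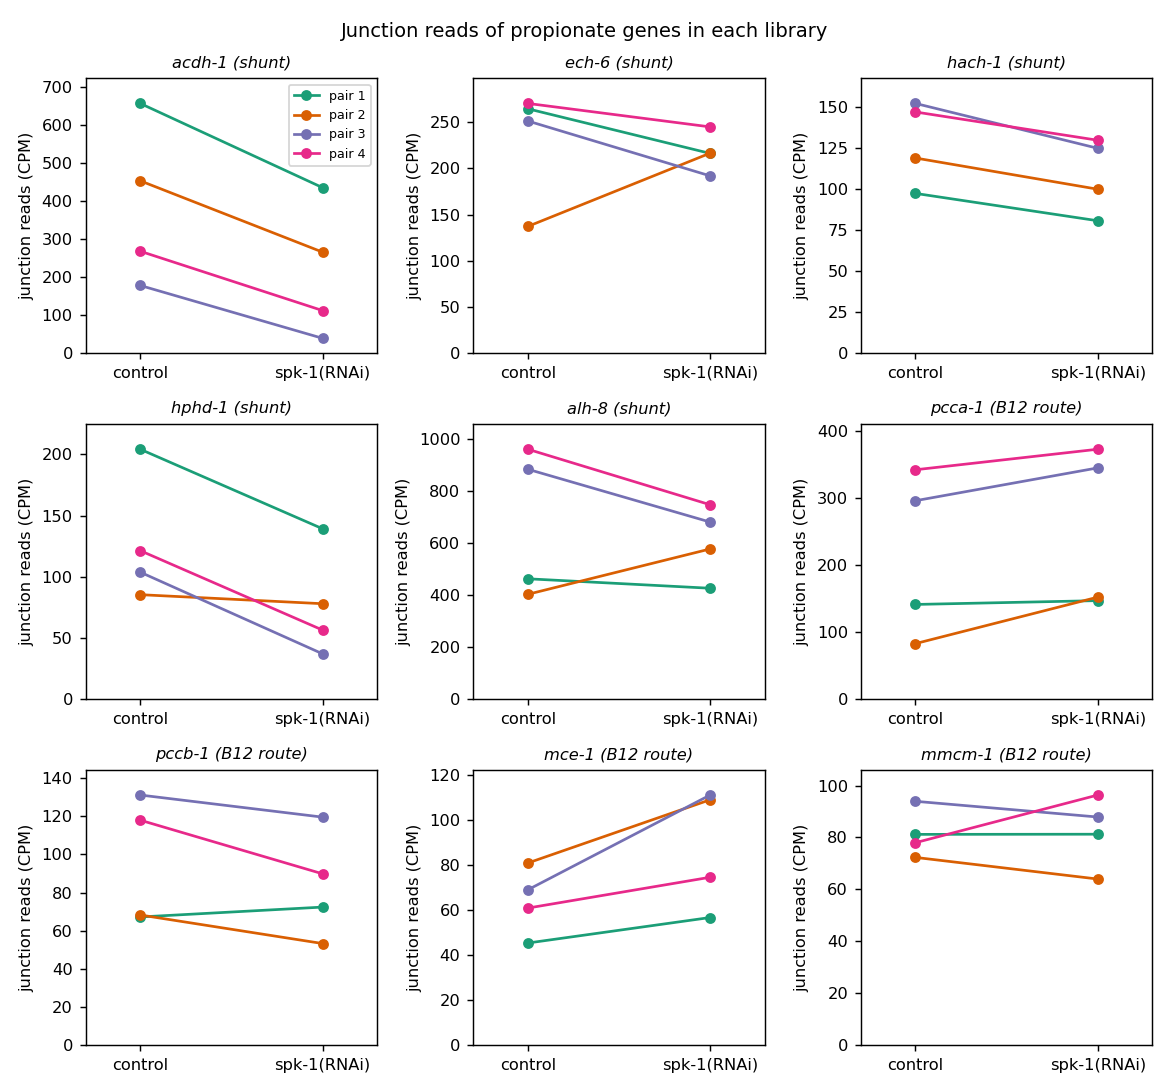
Junction CPM (linear axes from 0) of each of the 9 genes in the 4 control and 4 spk-1(RNAi) libraries, with a line joining the libraries of each numbered pair. For acdh-1 the lines go down in all 4 pairs from 178 to 656 CPM in controls to 39.5 to 435 CPM, for mce-1 they climb in all 4 pairs, and for mmcm-1 they stay between 63.95 and 96.3 CPM.

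No gene of the B12 route differed between the groups as far as acdh-1 or hphd-1 in log2 fold change. The carboxylase that opens this route has an alpha subunit, which carries biotin, encoded by pcca-1, and a beta subunit encoded by pccb-1. In controls pcca-1 had 141, 82.7, 295.5 and 342 CPM, and after spk-1(RNAi) 147, 152, 344 and 372 CPM. Each spk-1(RNAi) library was above its own control, at ratios of 1.04, 1.84, 1.17 and 1.09, while the spread among controls, 4.13 times from lowest to highest, was larger than any of these. For pccb-1 the controls had 67.2, 68.2, 131 and 118 CPM and the spk-1(RNAi) libraries 72.4, 53.2, 119.6 and 89.8 CPM, with pair ratios of 1.08, 0.780, 0.912 and 0.761. The subunit genes thus shared the higher level in replicates 3 and 4 but stood on different sides of 1 in pairs 2, 3 and 4.

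The epimerase gene mce-1, whose product passes methylmalonyl-CoA on to the mutase, had 45.3, 80.9, 69.0 and 60.8 CPM in controls and 56.6, 109, 111 and 74.5 CPM after spk-1(RNAi). It was higher after spk-1(RNAi) in all 4 pairs, at ratios of 1.25, 1.35, 1.61 and 1.23, and the groups overlapped. Its log2 fold change was 0.46 (SE 0.27), or 0.44 (SE 0.12) with the block. The mutase gene mmcm-1, which encodes the enzyme that uses B12, had 81.2, 72.3, 93.9 and 78.0 CPM in controls and 81.2, 63.95, 87.9 and 96.3 CPM after spk-1(RNAi). The group means of mmcm-1 were 81.3 ± 9.16 and 82.3 ± 13.7 CPM (SD, n = 4), and the highest control had 1.299 times the lowest.

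How far these ratios lay from those of other genes differed by pair. The central 90% of all 5762 genes had log2 ratios from -0.42 to 0.41 in pair 1, -0.99 to 0.89 in pair 2, -0.76 to 0.69 in pair 3 and -0.58 to 0.61 in pair 4. The ratio of acdh-1 was below that range in pairs 1, 3 and 4 and inside it in pair 2. Counted from the lowest ratio of all genes, acdh-1 ranked 124, 473, 10 and 54 in pairs 1 to 4, and hphd-1 ranked 149, 2227, 46 and 67. The ranks of mce-1, counted the same way, were 5312, 4653, 5470 and 4815. Pair 2, where hphd-1 stood in the middle of the genes, was the pair with the fewest junction reads in its control.

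**Figure D2:**
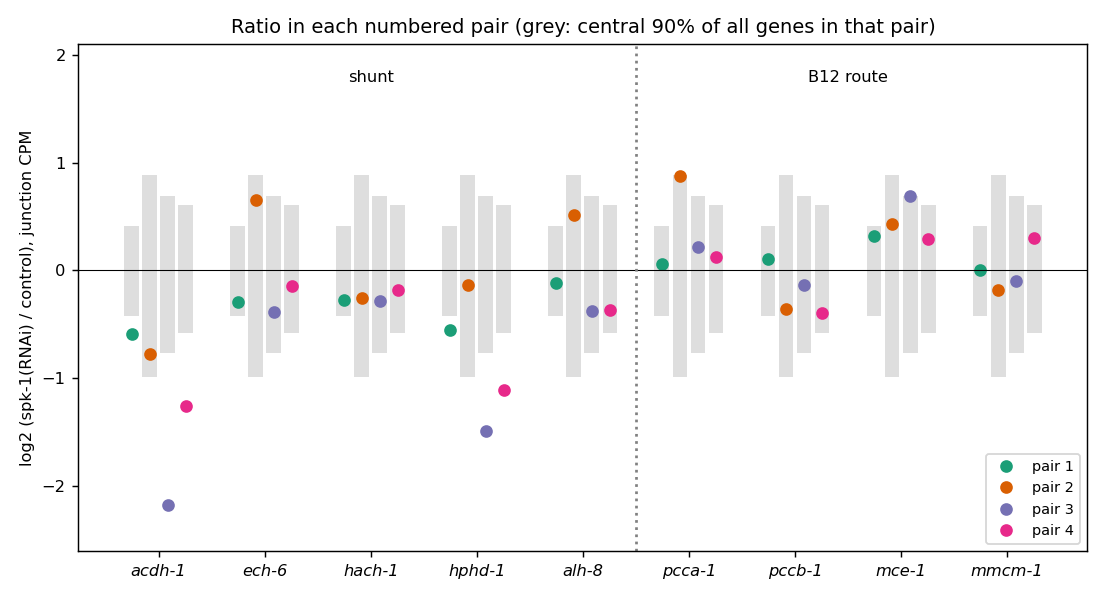
Log2 ratio of spk-1(RNAi) to control junction CPM for each gene, 1 point for each numbered pair, over grey bars that span the central 90% of all 5762 genes in that pair. The points of acdh-1 and hphd-1 lie below the bars in pairs 1, 3 and 4, and those of hach-1 lie within them.

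In edgeR's quasi-likelihood test of all genes, adjusted by Benjamini-Hochberg at 0.05, 0 of the 9 genes were called without the block and 0 with it, where 0% and 0% of all genes were called. At an unadjusted p under 0.05, 54 of all genes and 0 of the 9 passed without the block, and 553 of all genes and 4 of the 9 with it. DESeq2 called 0 genes without the block, and with it 2 of the 9, acdh-1 and hphd-1, where it called 0.885% of all genes in either direction and 0.312% lower. The genes acdh-1, hach-1 and hphd-1 were lower in 4 of 4 pairs, 3 of the 9 where 9.55% of all genes were. Higher in 4 of 4 pairs were pcca-1 and mce-1, 2 of the 9 where 9.63% of all genes were. For 0 of the 9 genes did the groups not overlap, where 0.573% of all genes lay wholly lower and 0.469% wholly higher. Nothing is read from these counts, since the genes were picked on this contrast.

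The routes were then set side by side in each library. Reads per listed intron do not grow with the length of a transcript, so each gene was given as CPM per listed intron and averaged over the genes of its route. The listed part of a gene's annotated introns differed, such as 3 of 3 for ech-6, 2 of 4 for pccb-1 and 6 of 12 for hphd-1. Each listed intron had at least 21 reads in each control, so poorly covered introns may be missing. Levels of different genes and routes on this scale may therefore be raised unequally. The shunt had 66.6, 47.0, 68.3 and 75.5 CPM per intron in controls and 52.6, 52.7, 48.6 and 57.8 after spk-1(RNAi). The B12 route had 26.2, 27.3, 45.7 and 44.3 CPM per intron in controls and 28.5, 31.9, 51.6 and 45.2 after spk-1(RNAi). The shunt was thus above the B12 route in every library but spk-1(RNAi) replicate 3, where the order was reversed. Without alh-8, the shunt mean was below the B12 route in control replicate 3 (41.1) and in spk-1(RNAi) replicates 3 and 4 (26.75 and 34.9). In the remaining libraries it stayed above. Over all genes of each route, the ratio of shunt to B12 route was 2.54, 1.72, 1.495 and 1.70 in controls. After spk-1(RNAi) this ratio was 1.84, 1.65, 0.943 and 1.28, and the group means were 1.87 ± 0.463 and 1.43 ± 0.400 (SD, n = 4). It was lower after spk-1(RNAi) in 4 of 4 pairs, by factors of 0.725, 0.960, 0.631 and 0.751, and the difference between the means was about the size of 1 SD. The B12 route mean was higher after spk-1(RNAi) in 4 of 4 pairs, at ratios of 1.02 to 1.17. Its group means, 35.9 ± 10.6 and 39.3 ± 10.9 (SD, n = 4), differed by less than 1 SD. Within this route, pcca-1 and mce-1 were higher in 4 of 4 pairs, while pccb-1 was lower in 3 and mmcm-1 in 2. The shunt mean was lower in 3 of 4 pairs, with pair 2 at 1.121.

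On the scale of changes, the mean log2 ratio of the 5 shunt genes minus that of the 4 B12 route genes was -0.49, -0.19, -1.11 and -0.69 in pairs 1 to 4. The same difference of mean log2 fold changes in the fit was -0.55, or -0.63 with the block. The median log2 fold change of all genes was -0.00454, or 0.00719 with the block. TMM scaling itself centres the bulk of genes close to 0, so this is no check on the scaling. The median over the shunt genes was -0.24 (-0.25 with the block), and over the B12 route genes 0.13 (0.16). All 5 shunt genes were below 1 in pairs 1, 3 and 4, and 3 of the 5 in pair 2, where ech-6 and alh-8 were above. Of the 4 B12 route genes, 0, 2, 2 and 1 were below 1 in pairs 1 to 4.

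The make-up of the shunt differed between sets of libraries more than between groups. In control replicates 1 and 2, acdh-1 made up 28.2% and 27.5% of the shunt's reads per intron and alh-8 27.8% and 34.3%. In control replicates 3 and 4, acdh-1 made up 7.46% and 10.1%, and alh-8 51.8% and 50.9%. After spk-1(RNAi) the share of acdh-1 was 23.7%, 14.4%, 2.32% and 5.55%, below the paired control in 4 of 4 pairs. Per intron, acdh-1 therefore stood at 1.01 and 0.803 times alh-8 in control replicates 1 and 2, and at 0.144 and 0.199 times in control replicates 3 and 4. In spk-1(RNAi) replicates 1 to 4 it stood at 0.729, 0.329, 0.0414 and 0.107 times alh-8. The labels name nothing that sets replicates 1 and 2 apart from 3 and 4. Within replicates 3 and 4 alone, the deepest libraries, the log2 fold change with the block was -1.72 for acdh-1 and -1.30 for hphd-1. These were the values furthest from 0 among the alternatives run. With pairs 2 and 3 alone the values were -1.48 for acdh-1 and -0.85 for hphd-1, and without pair 3 they were -0.88 and -0.64.

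**Figure D3:**
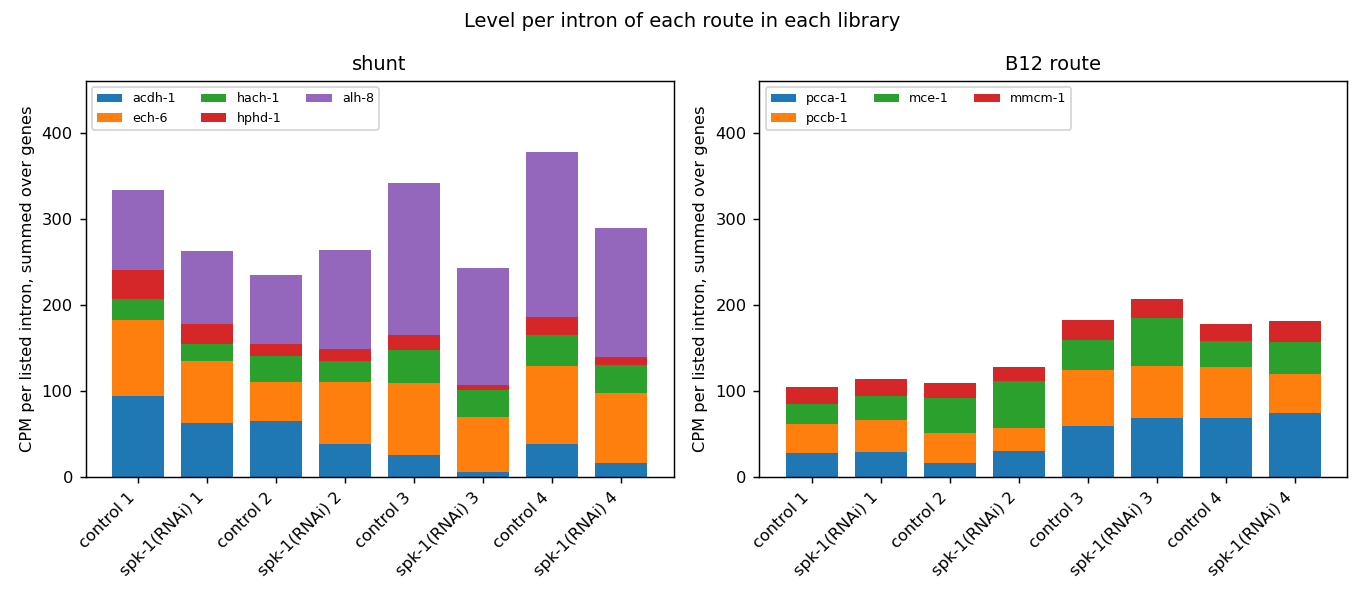
Stacked bars of CPM per listed intron (linear axis from 0), each gene of the shunt (left) and of the B12 route (right), in each library with the libraries of a pair next to each other. The acdh-1 segment goes from 28.2% to 23.7% of the shunt in pair 1, 27.5% to 14.4% in pair 2, 7.46% to 2.32% in pair 3 and 10.1% to 5.55% in pair 4, while the pcca-1 segment is taller in replicates 3 and 4 of both groups.

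Ordered by mean CPM per listed intron, the controls ran from alh-8 (135.5 ± 57.1) and ech-6 (77.0 ± 21.0) through acdh-1 (55.6 ± 30.3), pccb-1 (48.1 ± 16.7), pcca-1 (43.0 ± 24.6), hach-1 (32.2 ± 6.39), mce-1 (32 ± 7.47) and hphd-1 (21.5 ± 8.75) to mmcm-1 (20.3 ± 2.29, SD, n = 4). The ranges of every neighbouring pair of genes in that order overlapped over the 4 control libraries. After spk-1(RNAi), alh-8 (121.6 ± 28.0) and ech-6 (72.5 ± 7.22) kept the first places and did not overlap, while acdh-1 (30.5 ± 25.1) stood sixth, below pcca-1 (50.8 ± 24.2), mce-1 (43.9 ± 13.4) and pccb-1 (41.9 ± 14.1), and hphd-1 (12.95 ± 7.39) stood last. All neighbours after ech-6 in that order overlapped. These orders by mean rest on the listed introns alone and did not hold in each library. Within libraries, acdh-1 ranked 1, 2, 7 and 5 of the 9 genes in control replicates 1 to 4 and 3, 4, 9 and 8 in spk-1(RNAi) replicates 1 to 4, while alh-8 ranked 1 in all but control replicate 1, where it ranked 2.

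Single introns showed whether a gene's difference ran along the whole transcript. All 7 listed introns of acdh-1 were lower after spk-1(RNAi) in all 4 pairs, 28 of 28 comparisons. These ratios ran from 0.632 to 0.716 in pair 1, 0.405 to 0.960 in pair 2, 0.145 to 0.290 in pair 3 and 0.312 to 0.471 in pair 4. The first junction of acdh-1 was listed as 2 introns of 46 bases, at 6497629 to 6497674 and at 6497630 to 6497675, with near-equal reads, such as 1224 and 1209 in control replicate 3. Both copies enter the 28 comparisons and the CPM of acdh-1, so they are not separate evidence. Leaving out the second copy gave acdh-1 a log2 fold change of -1.19 with the block, close to the -1.196 above.

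For hphd-1, 21 of 24 comparisons were lower, and the ratios within a pair were less even. In pair 4 the 2 introns nearest the 3′ end had ratios of 0.761 and 0.789, the intron after exon 4 had 0.555, and those after exons 2, 5 and 6 had 0.217, 0.287 and 0.196. In pair 3 all 6 lay between 0.224 and 0.593. The listed introns of hphd-1 are 6 of the 12 annotated, so the other junctions were not measured here. Lower comparisons numbered 8 of 12 for ech-6, 11 of 16 for hach-1, 14 of 20 for alh-8, 5 of 20 for pcca-1, 5 of 8 for pccb-1, 2 of 8 for mce-1 and 8 of 16 for mmcm-1.

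**Figure D4:**
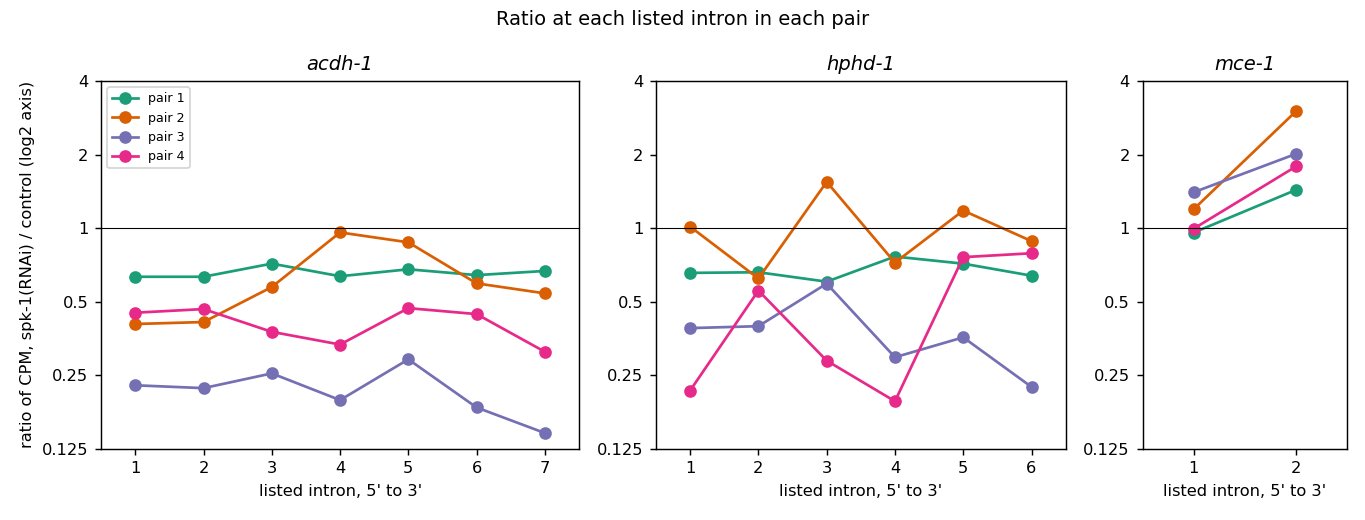
Ratio of spk-1(RNAi) to control CPM (log2 axis) at each listed intron from the 5′ to the 3′ end of acdh-1, hphd-1 and mce-1, 1 line for each pair, with the horizontal line at a ratio of 1. All acdh-1 points lie below 1, the hphd-1 points of pair 4 run from 0.196 to 0.789, and the second mce-1 intron lies above the first in every pair.

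The epimerase gene mce-1 has 2 introns, and the second had the higher ratio in each pair. This intron lies after exon 2 at 7582380 to 7582722 of chromosome I, 343 bases long. It had 241, 21, 679 and 460 reads in controls and 192, 74, 1283 and 859 after spk-1(RNAi), which are 24.9, 9.40, 18.0 and 18.5 CPM against 35.7, 28.3, 36.2 and 33.2 CPM. Every spk-1(RNAi) library was above every control, and the group means were 17.7 ± 6.35 and 33.4 ± 3.59 CPM (SD, n = 4). It was 1 of the 38 introns to lie wholly higher, where 0.389% of all introns did, and 0 of the 38 lay wholly lower, where 0.467% did. The pair ratios were 1.44, 3.02, 2.02 and 1.79 at the second intron and 0.960, 1.197, 1.403 and 0.996 at the first.

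As a share of the reads over both introns, the second intron of mce-1 had 59.1% (95% exact binomial interval 54.1% to 63.9%), 11.7% (7.41% to 17.4%), 25.1% (23.5% to 26.8%) and 29.6% (27.3% to 31.9%) in controls 1 to 4. After spk-1(RNAi) it had 68.3% (62.5% to 73.7%), 25.1% (20.2% to 30.4%), 32.5% (31.0% to 34.0%) and 43.0% (40.8% to 45.2%). The intervals cover counting error only, since reads copied by PCR are not independent molecules. The share was higher after spk-1(RNAi) in 4 of 4 pairs, but control replicate 1 exceeded spk-1(RNAi) replicates 2, 3 and 4, and the group means were 31.4% ± 19.96 and 42.2% ± 18.9 (SD, n = 4). These introns do not share a splice site, so the share compares coverage along the transcript and is not a choice between alternative sites.

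The use of each intron relative to the other introns of its gene was tested with edgeR's diffSpliceDGE (gene-level F test, Benjamini-Hochberg at 0.05) over the 4370 genes with at least 2 introns. None of the propionate genes passed, 0 of 9, where 0.0229% of all genes, spk-1 itself, did. With the replicate block 0 of 9 passed again, where 0.0686% did, namely spk-1, tos-1 and nosr-1. At an unadjusted p under 0.05, 10 genes passed without the block and 249 with it. Without the block the adjusted p in diffSpliceDGE was 1.0 for all 9 genes, and the smallest unadjusted p was that of mce-1 (0.28). With the block mce-1 had the lowest adjusted p of the 9, 0.684 in diffSpliceDGE (unadjusted p = 0.00979). Leaving out each pair in turn under the block gave mce-1 adjusted p-values from 0.401 to 0.996 in diffSpliceDGE. For acdh-1 the adjusted p of the same test was 0.990 with the block, and for hphd-1 0.989, so the uneven ratios along hphd-1 did not pass the test.

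The authors' deposited exon-bin table, made with DEXSeq, held 97 bins of the 9 genes, of which 93 carried a p-value. There, 0 of these bins had an adjusted p under 0.05, where 0.00355% of all 112784 bins with a p-value did (4 bins, all of spk-1), and the lowest adjusted p of any of the 9 genes was 1.0. At an unadjusted p under 0.05 stood 1 member bin, bin 19 of acdh-1 (p = 0.0252 in the authors' deposited table), or 1.08% of the 93 against 0.986% of all bins. The authors' deposited shorter junction table holds the 258 introns, 1.27% of those listed, whose p-value was under 0.01, and 4 of the 38 introns stood in it. They were both copies of the first junction of acdh-1, a further acdh-1 intron and the hphd-1 intron after exon 4. In edgeR's test of all introns 0 of the 38 were called without the block, where 0% of all introns were, and 2 with it, both lower, where 0.0689% of introns were called, 0.0492% lower and 0.0197% higher. These 2 were the copies of the first acdh-1 junction. DESeq2 with the block called 8 of the 38, where it called 0.246% of all introns, 0.157% lower and 0.0886% higher. Of these 8, 6 were introns of acdh-1 and 1 was the hphd-1 intron after exon 6, all lower, and 1 was the second mce-1 intron, higher. As for the gene counts, nothing is read from these intron counts or from those in the authors' shorter table, since they come from the contrast on which the genes were picked.

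The genes whose levels followed acdh-1 most closely over the 8 libraries were found by the root-mean-square distance between centred log2 CPM, which had a median of 1.25 over all genes. They were papl-1 (0.333), C23H5.8 (0.487), T05E12.6 (0.499), pho-1 (0.4998) and ints-3 (0.549). In papl-1 the controls had 28.1, 22.1, 11.3 and 11.7 CPM and the spk-1(RNAi) libraries 20.8, 14.8, 3.55 and 6.31 CPM, lower in each pair. C23H5.8, T05E12.6 and ints-3 were also lower in each pair. The log2 pair ratios were -0.06, -0.57, -0.31 and -1.1 for ints-3 and -0.05, -0.415, -1.40 and 0.01 for pho-1. The distance also takes in the spread between replicates, so a near gene need not share the pair ratios of acdh-1. Of the other propionate genes, hphd-1 stood at rank 21 of this order with a distance of 0.667. The remaining shunt genes ranked 2860 (ech-6), 3757 (hach-1) and 4485 (alh-8), and pcca-1, which was high where acdh-1 was low, ranked 5436 with a distance of 1.85.

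Genes of neighbouring pathways gave the setting for these changes. In lists taken by function, edgeR with the block called 0 members in each list, and the medians below are log2 fold changes with the block, to be read against 0.00719 over all genes. Branched-chain amino acid breakdown, which feeds propionyl-CoA in, had 9 of 11 genes measured, 5 higher and 4 lower, with a median of 0.05. In it acdh-3, an acyl-CoA dehydrogenase gene, averaged 100.2 ± 34.5 CPM over the controls against 121.3 ± 28.0 CPM over the spk-1(RNAi) libraries (SD, n = 4), and bckd-1B, of the branched-chain keto acid dehydrogenase, and bcat-1, the aminotransferase gene, had log2 fold changes of 0.32 and 0.20. The B12 and biotin handling list had 6 of 6 measured, 3 higher and 3 lower, with a median of 0.01. There mmaa-1, the gene of the mutase's G-protein chaperone, had a log2 fold change of -0.27 (SE 0.19), bpl-1, which encodes the ligase that attaches biotin, 0.23 (SE 0.19), and pmp-5 -0.46 (SE 0.44).

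The methionine and S-adenosylmethionine cycle, which holds the worm's other B12-dependent enzyme, had 11 of 15 measured, 8 higher and 3 lower, with a median of 0.10. The smallest p-values in that list were those of cth-2, a cystathionine gamma-lyase gene, and of the phosphoethanolamine methyltransferase genes pmt-1 and pmt-2, with log2 fold changes of 0.37 (SE 0.14), 0.32 (SE 0.16) and 0.20 (SE 0.13). Regulators of propionate genes had 3 of 6 measured. Among them nhr-10, a nuclear receptor that turns on the shunt when propionate persists, had 9.05 ± 9.11 CPM over the controls and 6.27 ± 5.61 CPM over the spk-1(RNAi) libraries (SD, n = 4), with 2 of 4 pairs lower. The others were nhr-66, with a log2 fold change of 0.08, and mdt-15, which encodes a Mediator subunit, with -0.05.

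Mitochondrial fatty acid oxidation had 14 of 20 genes measured, 9 higher and 5 lower, with a median of 0.09. One of them, hacd-1, a hydroxyacyl-CoA dehydrogenase gene, had 81.3, 93.5, 95.7 and 91.2 CPM in controls and 72.8, 55.1, 48.5 and 62.7 CPM after spk-1(RNAi). All spk-1(RNAi) libraries of hacd-1 were below all controls, where 0.573% of all genes lay wholly lower. Its log2 fold change was -0.61 (SE 0.15, adjusted p = 0.221 in edgeR with the block and 0.0471 in DESeq2 with the block, where DESeq2 called 0.312% of all genes lower). In the same list acdh-12 and let-721 had log2 fold changes of 0.25 and 0.26 and were higher in 4 of 4 pairs, where 9.63% of all genes were. The tricarboxylic acid cycle, where succinyl-CoA from the B12 route enters, had 16 of 17 measured, 11 higher and 5 lower, with a median of 0.14, and sucl-1 (succinyl-CoA ligase), dlst-1 (a subunit of the oxoglutarate dehydrogenase complex) and idhb-1 (isocitrate dehydrogenase) had log2 fold changes of 0.21, 0.18 and 0.21.

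Markers of tissues were summed in the same way. Summed over 5 of 8 measured hypodermal markers, all collagen genes, the controls had 599.5, 735, 1028 and 1343 CPM and the spk-1(RNAi) libraries 992, 1971, 1474 and 1730 CPM, higher in 4 of 4 pairs, and all 5 genes were higher with a median log2 fold change of 0.79. DESeq2 with the block called col-103, col-93 and col-98 higher, 3 of the 5, where it called 0.573% of all genes higher, and edgeR called 0. The marker lists, too, were chosen with earlier results of these data known, so nothing is read from calls in them. The 8 of 12 measured intestinal markers, of the tissue in which acdh-1 is best known to be expressed, summed to 34859, 28089, 62085 and 53134 CPM in controls and 34853, 35868, 65453 and 58897 CPM after spk-1(RNAi). Most of each sum came from vit-2, vit-5 and vit-6, with 11661, 9874 and 11090 CPM in control replicate 1. Of the 8 markers, 7 were higher and 1, fat-7, lower (median 0.19), and fat-6, a stearoyl-CoA desaturase gene, was called by DESeq2 with the block (log2 fold change 0.54). Muscle markers (6 of 8) summed to 2335 to 7848 CPM in controls and 3389 to 8199 after spk-1(RNAi), with 6 of 6 higher and a median of 0.41, and the smallest p-values were those of pat-10, unc-54 and unc-15, with log2 fold changes of 0.47, 0.45 and 0.39. Germline and oocyte markers (10 of 10) summed to 7879 to 9932 CPM in controls and 7289 to 9677 after spk-1(RNAi), with 3 higher and 7 lower and a median of -0.03, and glh-1, cbd-1 and oma-1 had log2 fold changes of -0.24, -0.09 and 0.07. Of the neuronal markers snb-1 and unc-119 were measured, with log2 fold changes of 0.20 and -0.28. Every listed intron had at least 21 reads in each control and at least 1 in each spk-1(RNAi) library. No measured marker could therefore be at 0, and its presence says nothing about the tissues. The part of these markers in the differences of the propionate genes was not tested.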

How the data were processed

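The longer junction table, per the file headers, holds counts of reads over introns, not normalized, for 4 control and 4 spk-1(RNAi) libraries. TopHat 1.4.1, Bowtie2 2.0.0 and build ce10 are named, without roles, per the submitters' processing notes, and the counter, its strand setting and the rule for listing introns are not stated there. Every listed intron had at least 21 reads in each control and at least 1 in each spk-1(RNAi) library, so junctions used mainly after knockdown may be missing. The deposited shorter junction table holds the authors' p-values, and the authors' DEXSeq table holds p-values and a normalized mean signal per exon bin. Of 20349 introns, 25 stood on both strands and 20324 were kept. Sequence names matched a symbol for 5709 of 5762 genes, and 160 introns had no gene and were left out of gene sums. Columns were mapped by heading, and 2 columns with the same heading by the authors' ratio headings, which matched the read quotient of the assigned column in 100% of introns and any other column's in no more than 1.155%, compared in the digits printed (0 columns of library values unused). Of 20037 intron lengths, 98.94% matched the reference annotation of another build with starts counted from 0, and coordinates are given counted from 1.

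Reads were summed per gene, filtered with filterByExpr (0 genes removed), scaled by TMM and tested with edgeR 4.0.16 (quasi-likelihood, group as the only term, Benjamini-Hochberg at 0.05) in R 4.3.3, and per intron likewise. Intron usage was tested with diffSpliceDGE. DESeq2 1.42.0, the replicate block, other scalings, filters and left-out libraries were alternatives. The authors' ratio headings pair the libraries by replicate number. The correlation across genes of the deviations from the group means was 0.88, 0.685, 0.711 and 0.751 for same-numbered libraries, and every library correlated best with its own number, so blocked values stand beside the others where they differ. For replicates 3 and 4 the margin was small. Control replicate 3 stood at 0.697 with spk-1(RNAi) replicate 4, and control replicate 4 at 0.685 with spk-1(RNAi) replicate 3. Distances between genes used log2 CPM with a prior count of 1. On simulated counts for the 5762 genes with 200 changed, edgeR recovered 0% of 2-fold and 78.5% of 4-fold changes without the block and 97% and 100% with it, with 12 and 9 false calls. The usage test recovered 8.5% of simulated 4-fold changes over 4370 genes without the block and 100% with it, with 15 false calls. Both simulations gave all genes or introns 1 common spread and the same change in every pair. Real genes differ in both, so these shares do not tell how many real changes of that size would be called. The members, gene lists and tests were chosen with earlier results of these data known. Named genes are the 9 members, the 5 genes nearest to acdh-1, and in each list the members called with the block or, with fewer than 3, the 3 of smallest p. No sequence is printed. Near-identical copies or overlapping genes could share reads in the authors' counting.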

Additional observations from a re-analysis of the deposited data

Results flagged for a closer look

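The level of ech-6 in control replicate 2 was 137.3 CPM, far below the other 3 controls at 251 to 270.4 CPM, with a gap to the nearest of them of 0.857 of the group's whole range, above Dixon's 95% critical value for 4 samples. In all, 24 groups of 4 values were looked at, and chance alone marks about 1 in 20. Control replicate 2 was the shallowest library, and hphd-1 (85.4 CPM), alh-8 (403 CPM), pcca-1 (82.7 CPM) and mmcm-1 (72.3 CPM) were also lowest there among the controls.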

How the results depend on the processing

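Direction held in all alternatives run for 5 genes. The log2 fold change ran from -1.72 to -0.49 for acdh-1, -1.30 to -0.42 for hphd-1, -0.36 to -0.12 for hach-1, -0.42 to -0.01 for pccb-1 and 0.32 to 0.62 for mce-1 over 24 alternatives each. The sign of ech-6 held in 21 of 24 (-0.27 to 0.11), alh-8 in 20 (-0.38 to 0.07), pcca-1 in 22 (-0.03 to 0.55) and mmcm-1 in 17 (-0.13 to 0.12). The shunt minus B12 route difference stayed below 0 in 23 alternatives, from -0.90 with pairs 3 and 4 alone to -0.30 without spk-1(RNAi) replicate 3, -0.34 without control replicate 1 and -0.82 without spk-1(RNAi) replicate 1. No alternative for this difference left out a shunt gene, so how far it rests on single genes was not tested. With the block, the log2 fold changes were -1.196 for acdh-1 and -0.86 for hphd-1. Those of hach-1, alh-8 and ech-6 were -0.25, -0.09 and -0.06, and those of the B12 route genes ran from -0.19 to 0.44. Without the highest gene of each route, the ratio of levels was 1.47 (controls) and 1.07 (spk-1(RNAi)), against 1.87 and 1.43.

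Counts of calls over all features depended on the model more than on the scaling. Genes called numbered 0 in edgeR with and without the replicate block, 51 in DESeq2 with the block, 0 to 7 under the block with each pair left out, 17 with pairs 2 and 3 alone and 213 with pairs 3 and 4 alone. Introns called were 0 without the block, 14 with it (14 also with shifted copies dropped), 6 and 50 in DESeq2 without and with it, 29, 14, 12 and 11 without pairs 1 to 4, 14 with pairs 2 and 3 and 286 with pairs 3 and 4. Genes called for intron usage were 1 without the block, 3 with it (3 with shifted copies dropped) and 3 to 4 with each pair left out. Leaving out single libraries gave 0 genes, 0 introns and 1 gene for usage, and the cause was not tested. The shifted copies and the left-out pairs of the usage test were chosen after seeing the data. Depth limits pair 2 most, where the second mce-1 intron rests on 21 control reads.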
